A study of Mus musculus with 9 samples.

Results

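The genes described here are 35 genes of the lysosome, the acidic compartment in which cells digest material taken up from outside and worn-out parts of their own. They were chosen by gene symbol, with earlier results of these data known, and all 35 were found among the 13593 genes of the deposited count table. By role they comprise 15 hydrolases, 3 soluble proteins that help hydrolysis or lipid export (Psap, Grn and Npc2), 8 proteins of the lysosomal membrane, the transcription factor Tfeb, and 8 subunits of the proton pump (V-ATPase). The cells were bone marrow-derived macrophages of wild-type C57BL/6 mice aged 6 weeks, grown from marrow for 7 days in medium with 15% L929 cell supernatant, which supplies macrophage growth factors. They were given bovine serum albumin (BSA, the protein control), the chemokine CX3CL1 or the chemokine CCL26, each at 4 nM for 4 h, with 3 RNA-seq libraries per group. Whether the 3 replicates of a group were separate animals or cultures is not stated, and the p-values then cover only library-to-library spread, which could be technical. The comparisons ask how each chemokine changed the levels of lysosomal transcripts, and whether they differed.

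Lysosomal hydrolases are acid enzymes that each cut one kind of bond in lipids, sugars or proteins, and most reach the lysosome tagged with mannose 6-phosphate. The V-ATPase pumps protons into the lumen, with a V1 sector in the cytosol that splits ATP and a V0 sector in the membrane that carries the protons. The transcription factor TFEB is known to switch on many of these genes together by binding a sequence built around the E-box CACGTG, and macrophages, which live by engulfing and digesting, hold large amounts of these proteins. Changes in transcripts do not measure the enzymes or the pH of the lysosome.

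The promoters of the genes are shown first because TFEB is known to act on many lysosomal genes through that box. RefSeq promoter windows on GRCm38.p6, from 250 bases before to 50 bases after the start of a transcript, matched 29 of the 35 genes, in 35 windows. CACGTG, which reads the same on both strands, was in 8 of the 35 windows (22.9%), against 7.15% of all 32851 windows of the same length. The same 8 windows held the longer TCACGTG on one strand or the other, which contains CACGTG, against 3.77% of all windows. None held the full palindromic CLEAR element of 10 bases, which contains both (0.326% of all windows). The 8 windows belong to 8 genes, 3 of the 12 that fell with CCL26 in the comparison with BSA below and 5 of the other 17 with a window. A match is a description of the letters and not evidence of binding. The 250 bases before the start of Lamp1, which encodes a major lysosomal membrane glycoprotein, held 4 boxes, and those of Mcoln1, which encodes the lysosomal calcium channel TRPML1, held 2. They are followed by the 30 bases around the box in the other 6 genes, all 5′ to 3′ on the gene's strand, with CACGTG in capitals.
Lamp1, chr8:13158911-13159160, plus strand: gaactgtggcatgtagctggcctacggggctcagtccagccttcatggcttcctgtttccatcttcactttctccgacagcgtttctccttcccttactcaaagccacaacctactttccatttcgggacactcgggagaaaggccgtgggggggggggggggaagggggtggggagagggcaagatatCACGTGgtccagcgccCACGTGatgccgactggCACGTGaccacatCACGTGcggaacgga
Mcoln1, chr8:3500269-3500518, plus strand: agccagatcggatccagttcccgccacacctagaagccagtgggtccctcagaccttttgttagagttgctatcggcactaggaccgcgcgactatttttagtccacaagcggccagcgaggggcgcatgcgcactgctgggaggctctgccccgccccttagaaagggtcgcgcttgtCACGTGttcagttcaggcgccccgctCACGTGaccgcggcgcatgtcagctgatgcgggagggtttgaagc
Lgmn, chr12:102439124-102439153, minus strand: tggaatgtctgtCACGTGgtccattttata
Atp6v1a, chr16:44139373-44139402, minus strand: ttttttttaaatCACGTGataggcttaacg
Glb1, chr9:114401018-114401047, plus strand: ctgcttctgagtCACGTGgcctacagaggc
Gaa, chr11:119267811-119267840, plus strand: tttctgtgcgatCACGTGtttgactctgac
Naglu, chr11:101070009-101070038, plus strand: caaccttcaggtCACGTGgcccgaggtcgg
Atp6v0d1, chr8:105566050-105566079, minus strand: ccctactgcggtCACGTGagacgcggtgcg

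The depth and the spread between libraries set what can be called. Total counts ran from 16923982 to 23198324 per library. CX3CL1 replicate 1 stood apart from the other 8 libraries: 1193 genes had no count in it, against 80 to 170 in each of the others, and the mean correlation of its log2 values with those of the rest was 0.899, against 0.970 to 0.974. Counts of called lysosomal genes are therefore given with all 9 libraries and without that library, and single genes are described from the fit without it unless stated. The levels of a gene in each library are in CPM, counts scaled to the TMM-adjusted library size, where TMM is edgeR's scaling for differences in composition. Called means an adjusted p under 0.05 (edgeR's quasi-likelihood test over all genes, Benjamini-Hochberg), and only genes that were called are said to rise or fall. All 14 macrophage markers examined were found, with a summed level of 26179 to 32482 CPM in the 8 libraries, against 1.18 to 3.31 CPM for 5 stromal markers found of 10.

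The 35 genes spanned a 520-fold range of level per length in BSA (CPM per kb of exon). The length of a gene joins all its annotated exons over all transcripts. Psap, the precursor of the saposins that help enzymes reach sphingolipids, was the highest at 2872 ± 10.9 CPM per kb (SD, n = 3) and gave 28.5% of the summed CPM of the 35 genes. Grn, the precursor of granulins, followed at 709.7 ± 14.0 and Lamp1 at 701 ± 11.9 CPM per kb, and these 2 values did not differ beyond their spread. Next came Cd68, a heavily glycosylated membrane protein of macrophages (543 ± 13.3), Laptm5, a membrane protein of blood cells (408 ± 9.28), and Lgmn, the asparaginyl protease legumain (401 ± 7.23), of which the last pair lay within their spread. The lowest 5 were Galc (6.30 ± 0.281), Atp6v0d2 (6.26 ± 0.774), Arsb (5.74 ± 0.350), Tfeb (5.60 ± 0.282) and Mcoln1 (5.52 ± 0.188 CPM per kb), and neighbours among them did not differ beyond their spread. That order depends on the lengths used, which the SD does not cover. Galc (14879 bases) had 93.8 CPM in BSA and Mcoln1 (7555 bases) 41.7 CPM, both above Smpd1 (3337 bases) at 32.4 CPM. The pump subunits ran from Atp6v1a at 227 ± 1.41 to Atp6v0d2 at the low end. The transcripts of the main luminal and membrane proteins thus lay far above those of the regulator Tfeb and the channel Mcoln1.

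**Figure D1:**
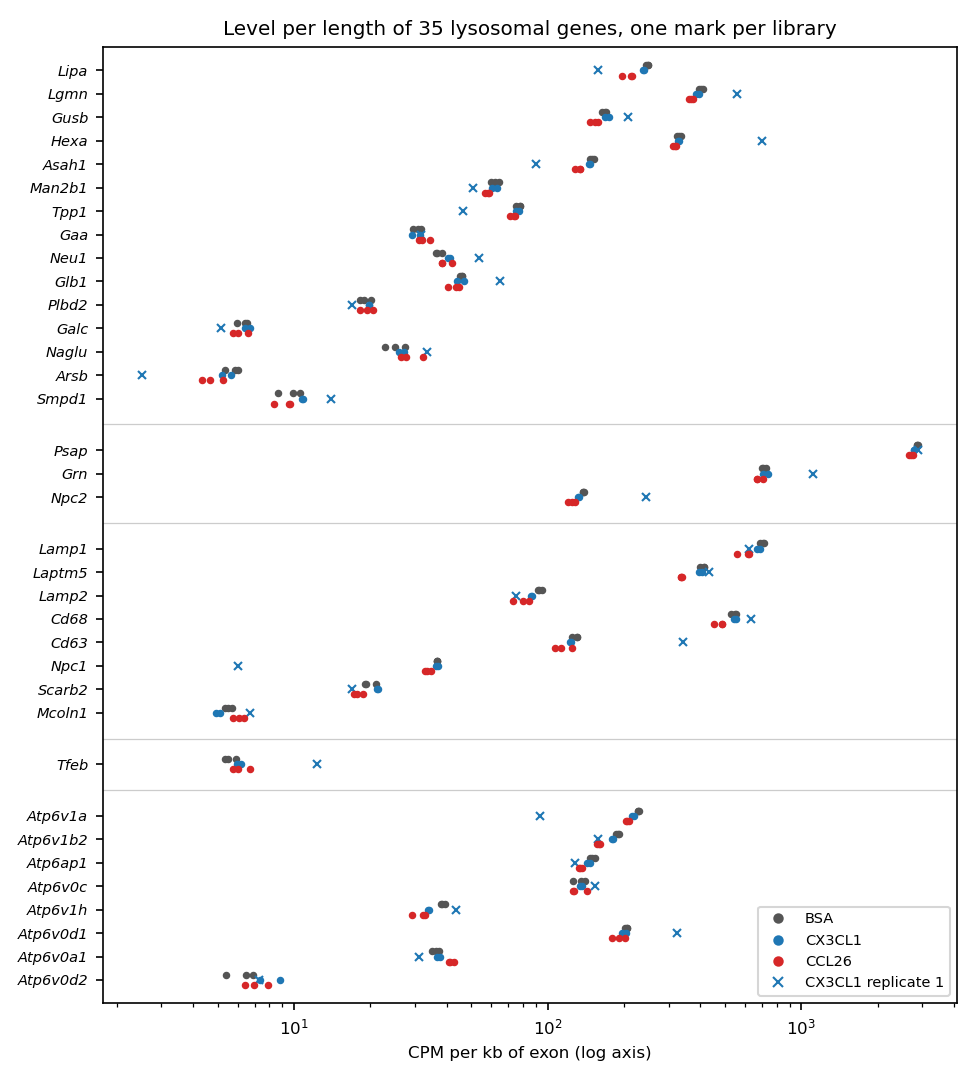
Level of each of the 35 lysosomal genes per length (CPM per kb of exon, log axis), with 1 mark per library: circles for 8 libraries and a cross for CX3CL1 replicate 1. Psap lies near 2872 and Mcoln1 near 5.52 CPM per kb in BSA; differences between groups are small against differences between genes.

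In CX3CL1 replicate 1, 12 of the 35 genes lay more than 1.5-fold from the median of the other 8 libraries, 6 above and 6 below (34.3%, against 59.7% of all genes). Npc1, the membrane protein that hands cholesterol out of the lysosome, was at 0.166 of that median, with 68.3 CPM against 372 to 418 CPM elsewhere. Atp6v1a, the catalytic subunit of the pump, was at 0.429 and Arsb, a sulfatase, at 0.474. In the other direction Cd63, a tetraspanin, was at 2.76 times the median, with 1261 CPM against 395 to 481 CPM, and Hexa (2.16 times), Tfeb (2.07) and Npc2 (1.84) were also high. The ratios were lower for genes with longer exons, with a Spearman's rho of -0.508 over the 35 genes and -0.496 over 12905 genes, a description across genes that share 1 library. CX3CL1 replicates 2 and 3 had 0 of the 35 genes that far from the median. The part of exon length in this was not tested.

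**Figure D2:**
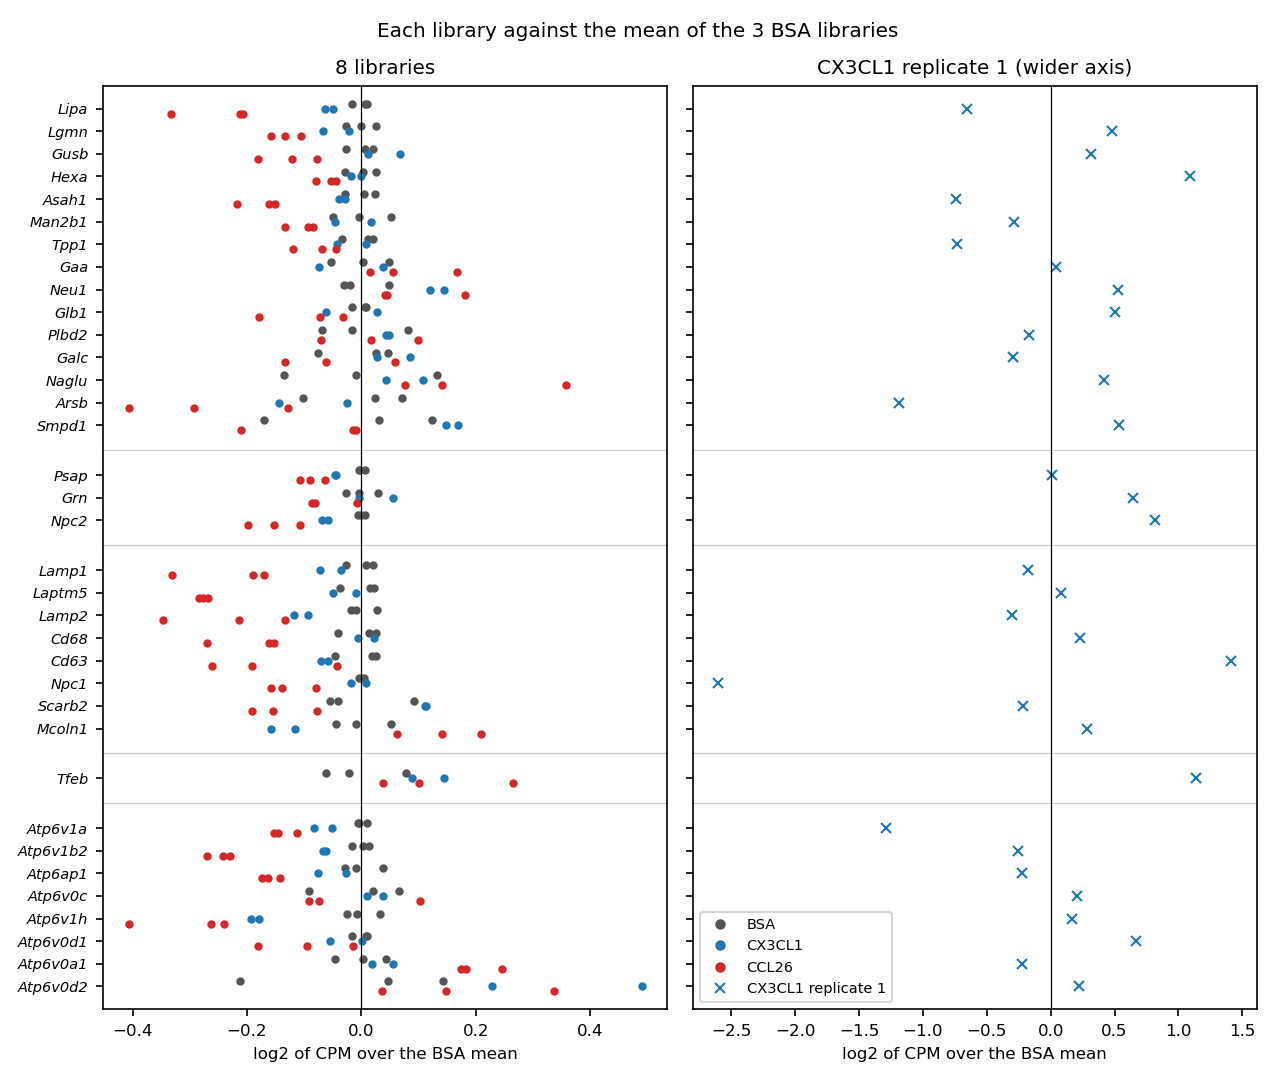
Each library's CPM over the mean of the 3 BSA libraries (log2), for 8 libraries at left and for CX3CL1 replicate 1 at right on a wider axis. At left the CCL26 libraries lie below BSA for most genes, by under 0.45; at right CX3CL1 replicate 1 reaches -2.60 for Npc1 and 1.41 for Cd63.

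With CCL26, many of the lysosomal genes had slightly lower transcript levels than with BSA, among them Lipa, Lamp1, Laptm5 and Atp6v1b2, and 1 pump subunit, Atp6v0a1, had a higher level. In edgeR these differences were called only when CX3CL1 replicate 1 was left out of the fit, while limma with library quality weights called 15 genes lower and 1 higher with all 9 libraries (9.15% of all genes lower and 10.0% higher in that fit), giving that library a weight of 0.0249 against 0.813 to 1.95. In edgeR without it, 16 of 35 genes fell, 1 rose and 18 were not called, while 9.26% of all 13245 genes tested fell and 9.74% rose. With all 9 libraries 0 of 35 were called (0.0465% of 12915 genes fell and 0.387% rose), 4 had an unadjusted p under 0.05 (6.13% of genes), and DESeq2 called 1, lower (0.627% of genes). The CCL26 and BSA libraries are the same in both fits, and the median log2 fold change was -0.10 in both, against 0.00 and 0.01 over all genes, with 27 of 35 genes below 0 (48.6% of all genes without CX3CL1 replicate 1). The standard errors (SE) differed, for Lipa 0.158 with all 9 libraries and 0.031 without CX3CL1 replicate 1. Changes were small, from a log2 fold change of -0.30 (Atp6v1h) to 0.20 (Atp6v0a1). Among the 2263 genes of at least 100 CPM, 31.8% fell and 14.0% rose, and of the 28 lysosomal genes at that level 16 fell (57.1%) and 1 rose (3.57%). CCL26 libraries lay wholly below BSA libraries for 21 of 35 genes and wholly above for 2 (16.3% and 16.4% of all genes), and for 20 of the 28 at 100 CPM or more (40.8% of such genes).

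Among the 15 hydrolases, 4 fell with CCL26, none rose and 11 were not called without CX3CL1 replicate 1 (median log2 fold change -0.07). That is 26.7%, against 9.26% of all genes and 31.8% of all genes of at least 100 CPM, a level that not all 15 reach. Lipa (chr19:34492318-34527474, GRCm38), the acid lipase that frees cholesterol and fatty acids from lipoproteins, had 1661, 1692 and 1686 CPM with BSA and 1455, 1449.5 and 1334 CPM with CCL26. CX3CL1 replicates 2 and 3 had 1608 and 1623 CPM, and replicate 1 had 1068 CPM. All 3 CCL26 libraries were below the other libraries except that one. Lipa fell by 15.7% (log2 fold change -0.25, SE 0.031, 95% interval -0.31 to -0.18, edgeR adjusted p = 1.78e-06).

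Asah1, the acid ceramidase, had 497, 508 and 515 CPM with BSA and 453, 456 and 436 CPM with CCL26. The groups did not overlap and the gene fell by 11.3% (log2 fold change -0.17, SE 0.036, edgeR adjusted p = 0.000954). Lgmn had 915, 931 and 949 CPM with BSA and 866, 849 and 835 CPM with CCL26, also without overlap (-0.13, adjusted p = 0.00434). Gusb, the beta-glucuronidase, had 744, 769 and 762 CPM with BSA against 698, 669 and 719 CPM with CCL26 (-0.12, adjusted p = 0.0136).

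A pair of hydrolases with the next smallest p were not called. Arsb had 36.4, 32.3 and 35.2 CPM with BSA and 31.7, 28.3 and 26.1 CPM with CCL26 (log2 fold change -0.27, SE 0.095, edgeR adjusted p = 0.0513). The groups did not overlap, and the fold is as large as that of Lipa, but the level is far lower and the spread wider. Man2b1, the alpha-mannosidase, had 517, 482 and 497 CPM against 470.3, 455 and 467 CPM (-0.10, adjusted p = 0.0635). The positive values were those of Naglu (0.20, adjusted p = 0.0771), Neu1 (0.09), Gaa (0.08) and Plbd2 (0.02), and the remaining 5 uncalled hydrolases lay between -0.09 and -0.04 (Glb1, Smpd1, Tpp1, Hexa and Galc).

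Of the soluble helper proteins, 2 of 3 fell with CCL26 (66.7%, against 9.26% of all genes and 31.8% of genes of at least 100 CPM). Psap had 7914, 7857 and 7869 CPM with BSA, and 7312, 7403 and 7543 CPM with CCL26. All 3 CCL26 libraries were below all BSA libraries, which lay close together, and Psap fell by 5.64% (log2 fold change -0.08, SE 0.019, edgeR adjusted p = 0.00197). Npc2, which passes cholesterol to Npc1, had 749, 751 and 754 CPM with BSA and 676, 655 and 697 CPM with CCL26 (-0.15, SE 0.033, adjusted p = 0.00203). Grn had 2517, 2459 and 2420.0 CPM with BSA and 2321, 2330.3 and 2452 CPM with CCL26, and its groups overlapped (-0.06, adjusted p = 0.184).

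Of the membrane proteins 6 of 8 fell with CCL26 and none rose (median -0.17). That is 75.0%, against 9.26% of all genes and 31.8% of genes of at least 100 CPM. Laptm5 (chr4:130913125-130936141) had 1559, 1568 and 1503 CPM with BSA and 1282, 1274 and 1269 CPM with CCL26, while CX3CL1 replicates 1 to 3 had 1632, 1491 and 1534 CPM. The CCL26 libraries were below the other 6, and Laptm5 fell by 17.2% (log2 fold change -0.27, SE 0.028, edgeR adjusted p = 9.02e-08). Lamp1 had 1901, 1886 and 1840.2 CPM with BSA and 1646, 1667 and 1492 CPM with CCL26 (-0.22, SE 0.033, adjusted p = 1.84e-05). Lamp2, its sister glycoprotein, which also serves chaperone-mediated autophagy, had 904, 881 and 876 CPM against 765, 809 and 698 CPM (-0.22, SE 0.040, adjusted p = 0.000171). For both, the third CCL26 library was the lowest and the groups did not overlap.

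Cd68 had 689, 695 and 663 CPM with BSA and 610.3, 614 and 566 CPM with CCL26, without overlap (log2 fold change -0.19, SE 0.036, edgeR adjusted p = 0.000413). Npc1 fell by 8.09% (-0.12, adjusted p = 0.0227), and Cd63 fell although its groups overlapped (395, 414 and 459 CPM with CCL26 against 481, 479 and 458 CPM, -0.16, adjusted p = 0.0134). These 2 calls were the least stable: each was made in 4 of the 8 fits that left out a further library, Gusb in 5 and the other 14 called genes in all 8. Scarb2, the receptor that carries beta-glucocerebrosidase to the lysosome, was not called (-0.14, adjusted p = 0.0920). Mcoln1 was not called either, with 43.2, 40.4 and 41.4 CPM with BSA and 46.0, 43.5 and 48.2 CPM with CCL26 (0.14, adjusted p = 0.237).

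Tfeb itself had 33.5, 31.3 and 30.4 CPM with BSA, 35.1 and 33.7 CPM in CX3CL1 replicates 2 and 3, and 32.6, 34.0 and 38.1 CPM with CCL26. The groups overlapped, and the difference between CCL26 and BSA was not called (log2 fold change 0.14, 95% interval -0.05 to 0.32, edgeR adjusted p = 0.325). CX3CL1 replicate 1 stood at 69.7 CPM.

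**Figure D3:**
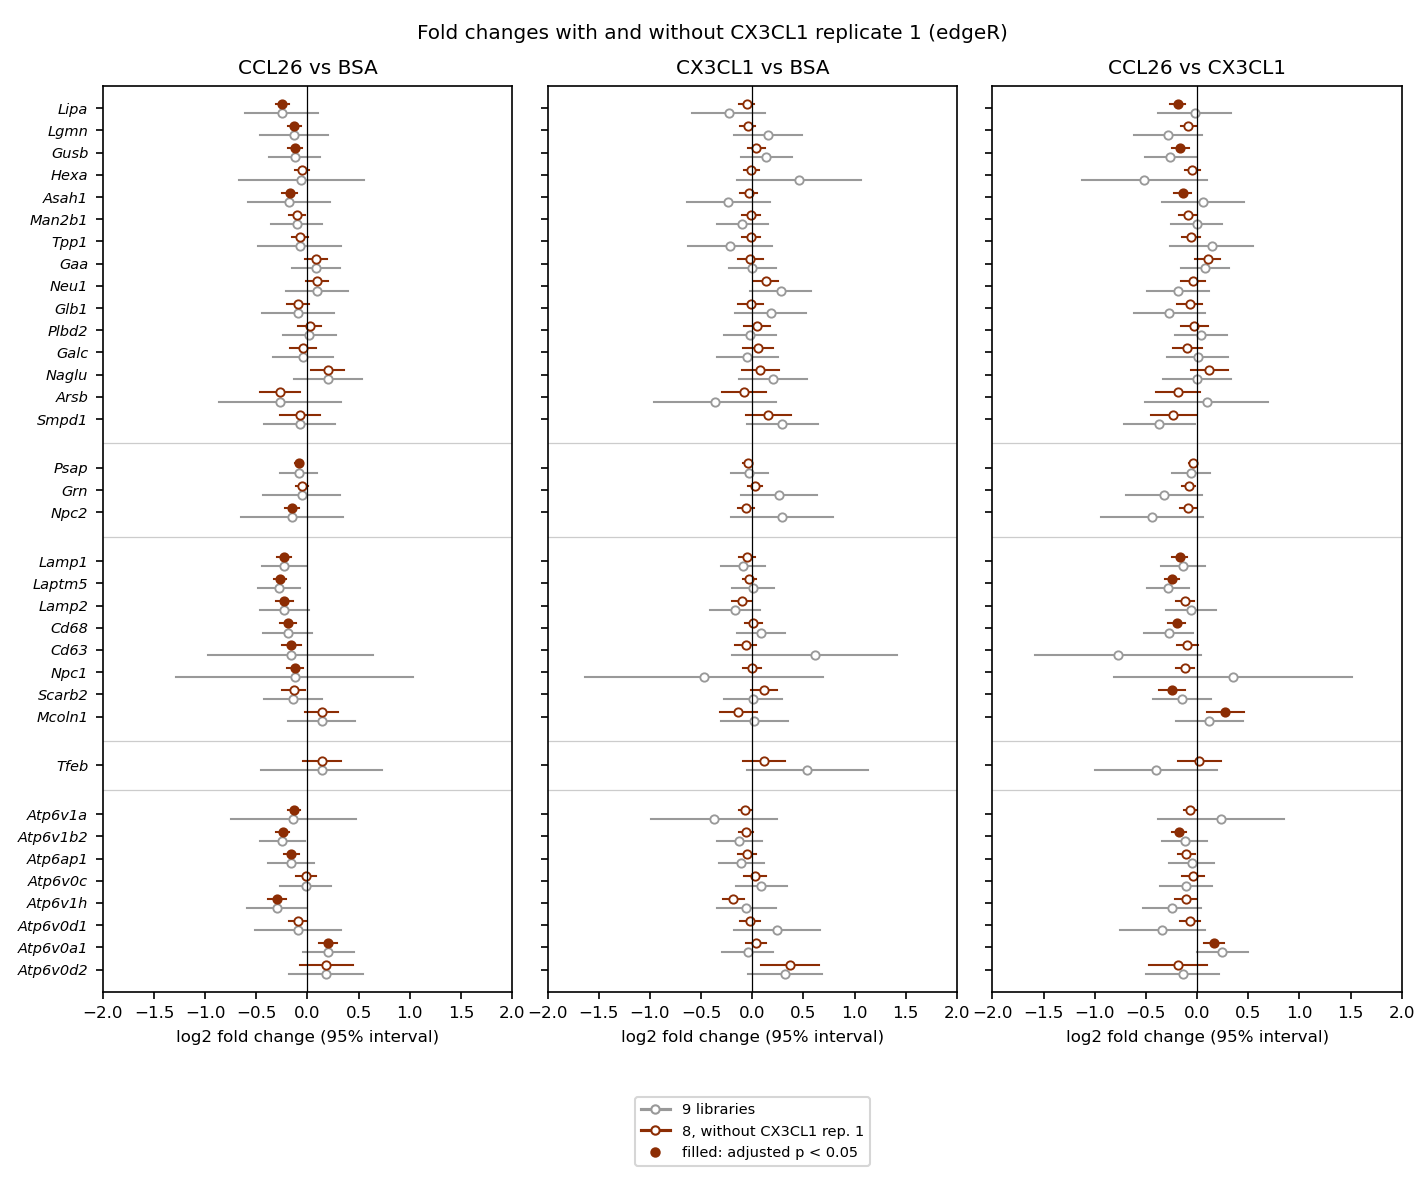
Log2 fold changes of the 35 genes with 95% intervals in the 3 comparisons, with all 9 libraries (grey) and without CX3CL1 replicate 1 (brown, filled where the adjusted p is under 0.05). Without that library 16 genes are lower and 1 higher in CCL26 against BSA, and intervals are narrower.

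In the proton pump without CX3CL1 replicate 1, 4 of the 8 listed subunits fell with CCL26, 1 rose and 3 were not called. Of all genes tested in that fit 9.26% fell and 9.74% rose. Of those of at least 100 CPM, a level that every listed subunit but Atp6v0d2 reaches, 31.8% fell and 14.0% rose. With all 9 libraries none was called, by edgeR or DESeq2, and 2 had an unadjusted p under 0.05 in edgeR (6.13% of all genes). Atp6v1h (chr1:5070018-5162529), the regulatory subunit of the V1 sector, had 385, 370.2 and 374 CPM with BSA, 329.6 and 333 CPM in CX3CL1 replicates 2 and 3, and 314, 319 and 284 CPM with CCL26. The 3 groups did not overlap once CX3CL1 replicate 1 (424 CPM) was set aside. Atp6v1h fell by 18.6% with CCL26 (log2 fold change -0.30, SE 0.043, edgeR adjusted p = 1.48e-05).

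Atp6v1b2, the nucleotide-binding B subunit, had 1003, 1011 and 989 CPM with BSA and 853, 847 and 830.0 CPM with CCL26 (log2 fold change -0.24, SE 0.030, edgeR adjusted p = 1.39e-06). Its catalytic partner Atp6v1a had 1382, 1369 and 1366 CPM against 1241, 1234 and 1269.9 CPM (-0.13, SE 0.028, adjusted p = 0.00118). Atp6ap1, an accessory protein that assists assembly of the pump, also fell (-0.16, adjusted p = 0.00327). None of these 4 genes overlapped between the groups.

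Atp6v0a1 (chr11:101009452-101063719), an isoform of the V0 subunit that lines the proton path, moved the other way. It had 229.6, 238 and 244 CPM with BSA, 203, 240.2 and 246 CPM with CX3CL1, and 281, 269 and 268 CPM with CCL26. All 3 CCL26 libraries were above the other 6, and the gene rose by 15.3% (log2 fold change 0.20, SE 0.043, edgeR adjusted p = 0.00107). Naglu, which was not called, starts just downstream of it on the same strand. The proteolipid Atp6v0c (-0.02, adjusted p = 0.878) and the stalk subunit Atp6v0d1 (-0.09, adjusted p = 0.142) were not called. Atp6v0d2, the isoform known from osteoclasts, had 14.7, 18.8 and 17.6 CPM with BSA, 19.9, 19.9 and 23.9 CPM with CX3CL1, and 21.5, 17.4 and 18.8 CPM with CCL26 (0.18, adjusted p = 0.352), with overlap between BSA and CCL26.

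The pump was also described by sector without CX3CL1 replicate 1, taking the 8 subunits above together with others outside the 35 genes. Of 8 V1 subunit genes, 4 fell with CCL26 and none rose (9.26% of all genes fell and 9.74% rose). All 8 reach 100 CPM, a level at which 31.8% of all genes fell and 14.0% rose. They were Atp6v1a, Atp6v1b2 and Atp6v1h, already described, and Atp6v1e1 of the peripheral stalk (-0.22, edgeR adjusted p = 0.000527). Of 8 V0 genes 1 fell (Atp6v0e, -0.15) and 2 rose. Both accessory proteins fell, Atp6ap1 as described and Atp6ap2 (-0.25, edgeR adjusted p = 8.71e-06). The 2 that rose are isoforms of the same a subunit, Atp6v0a1 and Tcirg1 (the a3 isoform, 0.15, adjusted p = 0.0132), and Atp6v0a2 had 0.20 (adjusted p = 0.0522). All 3 had CCL26 libraries wholly above BSA libraries. Their values for CX3CL1 against BSA were also above 0 without CX3CL1 replicate 1 (median 0.18, none called; Tcirg1 0.18, adjusted p = 0.125), and 2 of 3 were below 0 with it. In edgeR with all 9 libraries no gene of any sector was called. This grouping by sector and isoform was chosen after the values were seen, and no difference between sectors was tested.

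**Figure D4:**
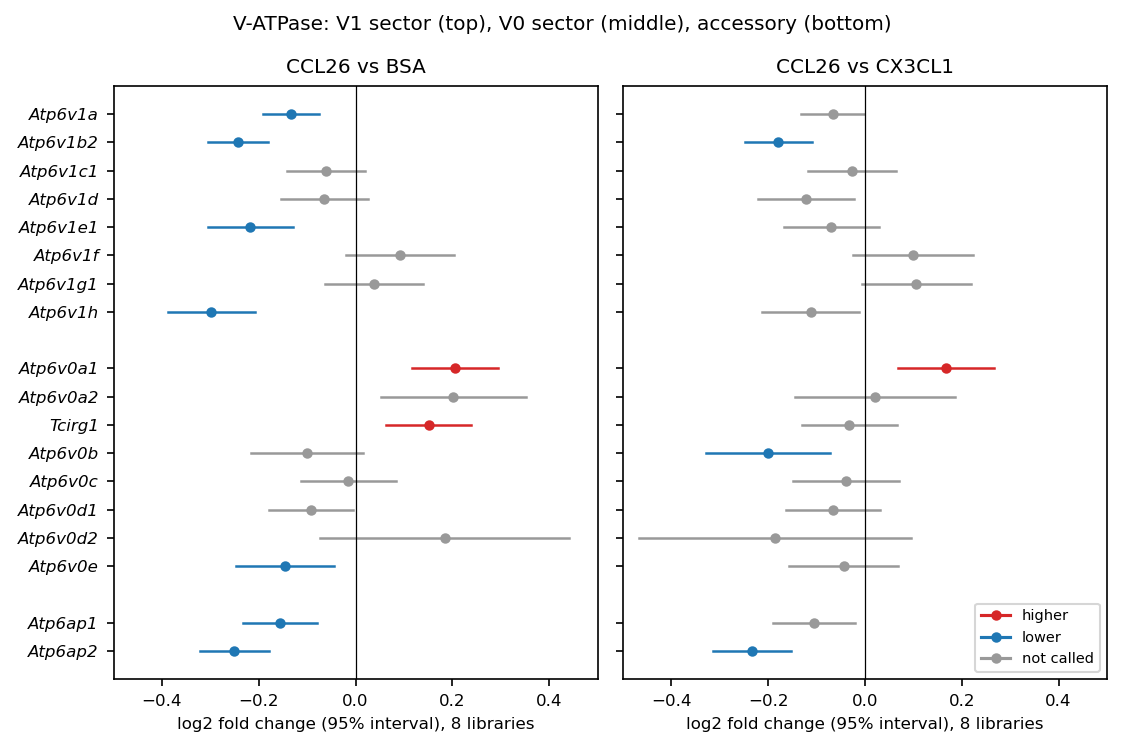
Log2 fold changes with 95% intervals for V-ATPase genes without CX3CL1 replicate 1, ordered as V1 sector, V0 sector and accessory proteins, for CCL26 against BSA (left) and against CX3CL1 (right). The 3 a-subunit isoforms lie at 0.15 to 0.20 at left, where 4 V1 genes are lower.

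Summed over all 35 genes, the level was 27839.5, 27614 and 27509 CPM with BSA and 25219, 25265.5 and 25236 CPM with CCL26. CX3CL1 replicates 2 and 3 had 26928 and 27118 CPM, and replicate 1 had 29547 CPM. The CCL26 libraries were lowest and lay close together, with a difference from BSA of -8.73%. The difference was -8.65% for the 27 genes outside the pump and -9.15% for the 8 pump genes. By role it was -14.1% for membrane proteins, -8.73% for hydrolases and -5.71% for the soluble helpers, sums to which the highest genes give most. For the 104 other lysosomal genes described below it was -4.16%. Among these, 30 further membrane and sorting proteins summed to 6617 to 6690 CPM with BSA and 6535 to 6745 CPM with CCL26, with overlap. The sums of the further hydrolases, pump genes and regulators were lower with CCL26, without overlap. CX3CL1 replicate 1 was highest outside the pump (26008 CPM, others 21319 to 23519) and lowest for the pump (3539 CPM, others 3863 to 4321).

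**Figure D5:**
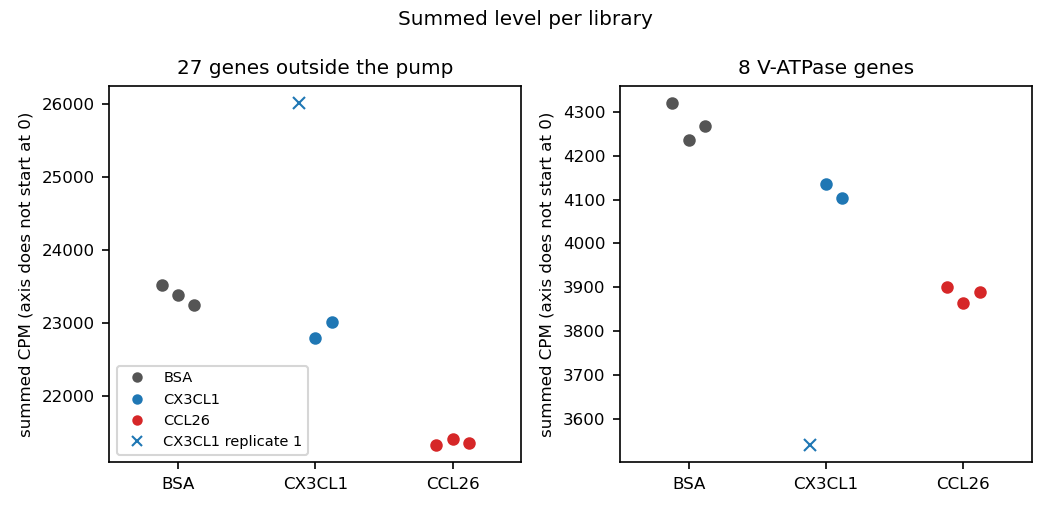
Summed CPM of the 27 genes outside the pump and of the 8 pump genes by group, with 1 mark per library (circles, and a cross for CX3CL1 replicate 1) and axes that do not start at 0. CCL26 libraries lie at 21319 to 21402 CPM outside the pump and 3863 to 3899.8 CPM for the pump, below BSA in both panels, with CX3CL1 replicates 2 and 3 between them, while CX3CL1 replicate 1 is high in one and low in the other.

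The summed level of macrophage markers was also lowest in the CCL26 libraries. Without CX3CL1 replicate 1, 8 of the 14 markers fell with CCL26 and none rose (9.26% of all genes fell and 9.74% rose). Among all genes of at least 100 CPM, a level that most of these markers reach, 31.8% fell and 14.0% rose. Among those that fell were Lyz2, the lysozyme of macrophages (-0.35), Itgam (-0.24) and Adgre1 (-0.14). Values were below 0 for 11 markers and above 0 for 3, and the receptor Csf1r was not called (0.04, edgeR adjusted p = 0.423). In edgeR with all 9 libraries 0 of the 14 were called, with 1 at an unadjusted p under 0.05. DESeq2 on the same libraries called none, and library quality weights called 8, all lower. Their summed level was 31825 to 32482 CPM with BSA, 29962 and 30733 CPM in CX3CL1 replicates 2 and 3, 48123 CPM in replicate 1, and 26179 to 26372 CPM with CCL26. Lyz2 alone gave 23172 to 23731 CPM of it with BSA, 18017 to 18509 CPM with CCL26 and 36699 CPM in CX3CL1 replicate 1. The sum without Lyz2, taken after the values were seen, was 8653 to 8751 CPM with BSA, 8389 and 8475 CPM in CX3CL1 replicates 2 and 3, 11425 CPM in replicate 1, and 7834 to 8162 CPM with CCL26. Of 11 granulocyte markers tested 3 rose (S100a8, S100a9 and Csf3r), with a sum of 149.9 to 160.3 CPM with BSA and 178 to 189 CPM with CCL26, and with all 9 libraries edgeR called none (none at an unadjusted p under 0.05), DESeq2 none and library quality weights 5, all higher. Of 7 osteoclast markers, the cell type in which Atp6v0d2 is best known, none was called by edgeR or DESeq2, with 1 at an unadjusted p under 0.05 (library quality weights on all 9 libraries called 1 of 6 tested, higher), and the sum was 99.3 to 108 CPM with BSA and 88.2 to 105 CPM with CCL26. Of the other lists, 1 of 5 dendritic cell markers rose, 1 of 9 monocyte markers rose and 1 fell, 1 of 3 lymphoid and 1 of 2 mast cell and erythroid markers fell, and none of 5 stromal markers was called by edgeR, none at an unadjusted p under 0.05. The part of the marker changes in the lysosomal differences was not tested, and in bulk RNA fewer cells of a type and less RNA per cell cannot be told apart.

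With CX3CL1, none of the 35 genes was called against BSA. That held with all 9 libraries (where 0.0% of 12915 genes were called in either direction, no lysosomal gene had an unadjusted p under 0.05 against 3.14% of genes, and DESeq2 called none) and without CX3CL1 replicate 1 (0.31% of genes fell and 0.0227% rose). In the second fit 6 genes had an unadjusted p under 0.05 (7.48% of all genes), and DESeq2 called 1, a pump subunit, lower (0.574% of all genes). The median log2 fold change was -0.02, and for most genes the 95% interval was narrow: that of Lipa ran from -0.13 to 0.02 and that of Laptm5 from -0.09 to 0.04. Atp6v1h had the largest negative value (-0.19, interval -0.29 to -0.09, edgeR adjusted p = 0.132), and Atp6v0d2 the largest positive one (0.37, interval 0.09 to 0.65, adjusted p = 0.504). With only 2 libraries left in the group, these values rest on a spread shared with the other groups. With replicate 1 kept, Cd63 had a value of 0.61 and Npc1 of -0.47, and both lay near 0 without it (-0.06 and 0.00).

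Set against CX3CL1 rather than BSA, CCL26 gave fewer calls. Without CX3CL1 replicate 1, 8 of 35 genes fell and 2 rose (4.64% and 5.47% of all genes), and of the 28 at 100 CPM or more 8 fell (28.6%, against 16.5% of all such genes). With all 9 libraries none was called by edgeR (0.0155% of genes fell and 0.395% rose), 4 had an unadjusted p under 0.05 (11.5% of genes), and DESeq2 called 1, lower (0.534% of genes). The 8 that fell were Lipa (-0.19), Gusb (-0.16) and Asah1 (-0.14) among hydrolases, Laptm5 (-0.24), Scarb2 (-0.25), Cd68 (-0.20) and Lamp1 (-0.17) in the membrane, and Atp6v1b2 (-0.18) in the pump. With all 9 libraries Asah1 had a value of 0.06, the opposite sign, and Lipa one of -0.02, which turned positive in 3 of the fits that kept CX3CL1 replicate 1 and left out another library. Of these, 7 also fell against BSA, and the CCL26 libraries are shared by the comparisons.

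Scarb2 was the one that did not, with 119, 132 and 121 CPM with BSA, 134 and 134 CPM in CX3CL1 replicates 2 and 3, and 118, 112 and 109 CPM with CCL26. CX3CL1 replicate 1, at 107 CPM, was the lowest of the 9 libraries, and with it included CCL26 against CX3CL1 had -0.15 (edgeR adjusted p = 0.556). The other CX3CL1 pair lay above both other groups (edgeR adjusted p = 0.00893 for CCL26 against CX3CL1). Mcoln1 showed the reverse order in replicates 2 and 3 of CX3CL1, with 37.4 and 38.5 CPM, below the 3 BSA libraries and all CCL26 libraries, but CX3CL1 replicate 1 was the highest of the 9 at 50.9 CPM. It rose with CCL26 against CX3CL1 (0.28, SE 0.088, adjusted p = 0.0459), a call made in 1 of the 8 fits that left out a further library. Its value was 0.12 (adjusted p = 0.667) with all 9 libraries. Atp6v0a1 rose here too (0.17, adjusted p = 0.0248), in 5 of 8 such fits. Lipa, Laptm5, Cd68 and Atp6v1b2 were called in all 8.

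Beyond the 35 genes, 104 other lysosomal genes of 107 listed were tested. Without CX3CL1 replicate 1, 19 fell and 11 rose with CCL26 against BSA (18.3% and 10.6%, against 9.26% and 9.74% of all genes; median -0.03), 14 fell and 5 rose against CX3CL1 (13.5% and 4.81%, against 4.64% and 5.47%), and none was called for CX3CL1 against BSA, by edgeR, where 10 had an unadjusted p under 0.05 (7.48% of all genes) and DESeq2 called 1. With all 9 libraries none was called in any comparison by edgeR. An unadjusted p under 0.05 was reached by 7 genes for CCL26 against BSA, 13 for CCL26 against CX3CL1 and 2 for CX3CL1 against BSA (6.13%, 11.5% and 3.14% of all genes), and DESeq2 called 4, 3 and 0 in that order. Of 34 further hydrolases and their helpers 8 fell and 2 rose with CCL26 against BSA (23.5% and 5.88%). Creg1, a lysosomal glycoprotein, had 808, 791 and 787 CPM with BSA and 666, 651 and 678 CPM with CCL26 (-0.26). Gla, the alpha-galactosidase (-0.25), and Ppt1, which removes palmitate from proteins (-0.27), fell as well. The acid phosphatase Acp2 (0.20) rose.

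Of 30 further membrane and sorting proteins 4 fell and 3 rose (13.3% and 10.0%, against 9.26% and 9.74% of all genes). Cd164, a sialomucin, fell from 194, 187 and 178 CPM with BSA to 136, 138 and 109 CPM with CCL26 (-0.54, edgeR adjusted p = 9.9e-07), a larger change than that of any of the 35 genes. The mannose 6-phosphate receptor Igf2r (-0.17) and the amino acid transporter Slc36a1 (-0.30) fell. The chloride-proton exchanger Clcn7 rose, with 234, 243 and 268 CPM with BSA and 307, 309.5 and 314 CPM with CCL26 (0.32, adjusted p = 1.35e-05), and so did Pip4p1 (0.42), a phosphoinositide phosphatase, and the amino acid sensor Slc38a9 (0.44).

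Of 17 further pump and pump-associated genes 3 fell and 2 rose (17.6% and 11.8%, against 9.26% and 9.74% of all genes). The second that rose, besides Tcirg1, was Dmxl2 (0.32), which assists V-ATPase assembly. Of 23 regulators of the TFEB and mTORC1 pathway, by which lysosomes report nutrients, 4 fell and 4 rose (17.4% each). Rragc, a Rag GTPase that recruits mTORC1 to the lysosome, had 773, 779 and 754 CPM with BSA and 606, 624 and 551 CPM with CCL26 (-0.37, edgeR adjusted p = 1.29e-07). Fnip2 (-0.16) and Lamtor3 (-0.16), also of the lysosomal nutrient-sensing machinery, fell. Mtor, the kinase itself, had 38.2, 35.5 and 36.4 CPM with BSA and 44.8, 44.7 and 43.9 CPM with CCL26 (0.28, adjusted p = 0.0142). Tsc1 (0.36), which restrains mTORC1, and Zkscan3 (0.47), a repressor of autophagy genes, rose.

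Exons of 6 of the 35 genes overlap those of another gene in the table, by 12.8% of the exon length in Hexa and by at most 9.31% in Glb1, Grn, Lamp1, Npc1 and Plbd2. Without a statement on strand in the sources used here, reads there cannot be told apart. The overlapping partner was at 50.6 CPM for Npc1 (Rmc1), 23.5 CPM for Glb1 (Tmppe) and under 2 CPM for the other 4.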

How the data were processed

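RNA of mouse bone marrow-derived macrophages was sequenced in 9 libraries, 3 per group. The authors deposited these as raw counts for each gene in a single file. Tools listed in the submitters' processing notes are STAR, MultiQC and featureCounts, with the builds mm10 and GRCm38; versions and the use of strand are not given in the sources used here. Libraries were matched to columns by the sample code in the labels, with 0 columns left over. Depth was 16923982 to 23198324 counts.

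Genes were filtered with filterByExpr by group (12915 kept with 9 libraries, 13245 with 8), scaled by TMM and tested by the quasi-likelihood F test of edgeR 4.0.16 in R 4.3.3, with group as the only term and Benjamini-Hochberg adjustment over all genes at 0.05. The same fit without CX3CL1 replicate 1 was run because the choice of the genes asked for it. SE is the size of the log2 fold change over the square root of F, and intervals are 95%. Alternatives were DESeq2 1.42.0, its size factors, no filter, limma 3.58.1 voom with library quality weights, the replicate number as a block, fits on 6 libraries, and leaving out libraries. The background of genes of at least 100 CPM and the split of the pump by sector were added after seeing the data. Scripts were tested on simulated counts. Exon lengths and gene coordinates come from GENCODE M21 on GRCm38, promoters from RefSeq on GRCm38.p6. Figures used matplotlib 3.10.9 (Python 3.11.15).

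The 35 genes, the other gene lists and the markers were chosen with earlier results of these data known. All 35 genes passed the filter in both fits and are named. Values in every library are given for the genes with the smallest p per role without CX3CL1 replicate 1 (6 hydrolases, 4 membrane proteins, 4 pump subunits, the soluble proteins and Tfeb), for Atp6v0d2, and for the 2 highest per length; of the other lysosomal genes up to 3 per list and direction are named, except 1 gene that is not reported here. Per-library values of Scarb2, Mcoln1 and Cd63, and the genes Atp6v0a2 and Csf1r, were added after their values were seen.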

Additional observations from a re-analysis of the deposited data

How the results depend on the processing

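In edgeR with all 9 libraries no lysosomal gene was called in any of the 3 comparisons, and edgeR with DESeq2 size factors or with no filter changed none of these counts. The counts below are of genes called among the 27 outside the pump, the 8 pump genes and the 104 other lysosomal genes, in that order. For CCL26 against BSA they were 12, 5 and 30 without CX3CL1 replicate 1, 1, 0 and 4 with DESeq2 on all 9, 11, 5 and 30 with library quality weights, and 13, 5 and 30 in a fit on the 6 libraries compared. Without CX3CL1 replicate 1 they were 14, 5 and 30 with DESeq2 size factors and 14, 5 and 33 with DESeq2. For CCL26 against CX3CL1 the counts were 8, 2 and 19 without CX3CL1 replicate 1, 1, 0 and 3 with DESeq2 on all 9, 6, 2 and 16 with quality weights, and 0, 0 and 0 in the fit on 6 libraries, which include CX3CL1 replicate 1. Without that library they were 8, 2 and 18 with DESeq2 size factors and 9, 2 and 20 with DESeq2. For CX3CL1 against BSA only DESeq2 without CX3CL1 replicate 1 gave any among these settings, 0, 1 and 1. The cause was not tested beyond the libraries each fit held. No scaling moved the median of all genes by over 0.1.

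Leaving out 1 library other than CX3CL1 replicate 1 left every count at 0. Leaving out 1 more library besides it gave 9 to 14, 5 to 6 and 21 to 34 for CCL26 against BSA, 4 to 12, 1 to 4 and 7 to 27 for CCL26 against CX3CL1, and 0 to 2, 0 to 1 and 0 to 2 for CX3CL1 against BSA, where the nonzero counts came without CCL26 replicate 3. For CCL26 against CX3CL1 the lowest counts came without a further CX3CL1 library, whose group then has 1 library and is assumed to vary like the others, except that the lowest pump count also came without CCL26 replicate 1, and the highest counts came without CCL26 replicate 3.

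No pairing by replicate number was visible: over all tested genes, deviations of same-numbered libraries from their group means correlated at -0.078 to 0.051. With few libraries and many genes of low count, this cannot exclude a shared animal or batch. With the replicate number as a block every count was 0 with 9 libraries. The block without CX3CL1 replicate 1 gave 14, 5 and 30 for CCL26 against BSA, 7, 2 and 18 for CCL26 against CX3CL1, and 0, 0 and 0 for CX3CL1 against BSA. The genes of lowest level, near 15 to 50 CPM (Atp6v0d2, Tfeb, Smpd1, Arsb and Mcoln1), had wide intervals, and the part of depth in this was not tested.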
